A study of Mus musculus with 7 samples.

Results

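Contraction of a muscle fibre begins when a change in membrane voltage is turned into a release of calcium, and 10 genes whose proteins carry out this step or fill and hold the calcium store were examined across the 7 arrays. They were Cacna1s, Cacng1, Ryr1, Trdn, Jph2, Casq1, Casq2, Atp2a1, Atp2a2 and Sln. Every non-control probe of the array that carries the name of one of these genes was taken, which gave 14 of 39429 probes and 10 of 31829 gene names, with 3 probes for Trdn, 2 each for Cacna1s and Atp2a2 and 1 for each of the other genes. RNA came from C2C12, a line of mouse myoblasts that can be made to fuse into myotubes, after 24 h of incubation with exosomes, which are small vesicles released by cells. In the EXO-Post BSA group (n = 4 arrays) the exosomes came from C2C12 cultures given bovine serum albumin alone, and in the EXO-Post Palm group (n = 3 arrays) from cultures given palmitate, a saturated fatty acid, at 0.5 mmol/l. The paper states that these exosomes were collected after palmitate had been removed. All recipient cells were thus given exosomes, and no array of cells without exosomes was analysed here. The labels write the cell line with a number that grows from sample to sample, which was read as C2C12 throughout. Each label names a biological replicate but gives the cell type as myoblast, whereas the paper calls the recipient cells myotubes, and both groups rest on 1 cell line. The comparison asks whether exosomes released after palmitate changed the RNA of these genes in the recipient cells.

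In skeletal muscle the voltage sensor of the transverse tubule, a calcium channel whose pore subunit is the product of Cacna1s, is in direct contact with the release channel of the sarcoplasmic reticulum, the ryanodine receptor encoded by Ryr1. Junctophilins hold the tubule and the reticulum together, triadin ties the release channel to calsequestrin, and calsequestrin binds the stored calcium. The SERCA pumps encoded by Atp2a1 and Atp2a2 return calcium to the store, and sarcolipin, the product of Sln, is a small membrane peptide that inhibits them. Many of these genes are switched on when myoblasts differentiate.

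None of the 10 genes passed the threshold, an adjusted p of 0.05 over all tested probes, in either direction. The test was run on probes that the scanner software called well above background on 75% or more of the arrays in either group, which 13 of the 14 probes and 9 of the 10 genes met. Of the 13 tested probes, 0 were called by limma, where 0.533% of all 21589 tested probes were (115 probes, 100 with higher and 15 with lower signal in EXO-Post Palm). The count of member probes with an unadjusted p under 0.05 was also 0, where 10% of all tested probes had one. Log2 fold changes, EXO-Post Palm minus EXO-Post BSA, ran from -1.02 for a Trdn probe to 0.38 for Jph2. They were below 0 for 10 of the 13 probes, where 52.7% of all tested probes were below 0. One of the 10, Trdn probe A_55_P1966778, met the filter only through EXO-Post BSA, and with the filter set to well above background on all arrays the count was 9 of 12. Their median was -0.18, beside -0.023 over all tested probes. The 95% intervals of 11 of the 13 probes lay within 1 log2 unit either side of 0, the exceptions being Trdn probe A_55_P2401646 and, by a narrow margin, Jph2. In these bulk samples, fewer myotubes and less RNA per myotube cannot be told apart.

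**Figure D1:**
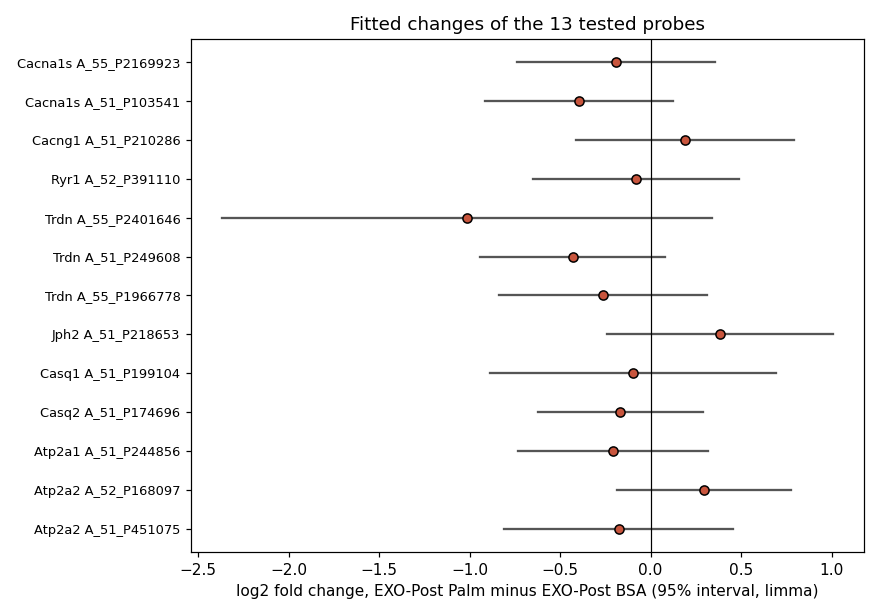
Log2 fold change (EXO-Post Palm minus EXO-Post BSA, horizontal axis) of the 13 tested probes, with 95% intervals from limma as horizontal lines. Every interval crosses 0, and the widest belongs to Trdn probe A_55_P2401646, from -2.37 to 0.34.

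Each probe is a 60-base oligonucleotide that reads 1 short stretch of its transcript, and 5 are shown here because their place in the gene bears on what follows. The Ryr1 and Casq1 probes run across a gap in the genome, spanning 699 and 1504 bases of it, so that each joins separate exons of the mature RNA. The Cacna1s, Atp2a2 and Trdn probes printed here are each 1 of several for their gene, and at Atp2a2 the probes had opposite signs. Coordinates come from the annotation of the array, which uses mm9.
Ryr1 A_52_P391110 (chr7:29788789-29789487, minus strand): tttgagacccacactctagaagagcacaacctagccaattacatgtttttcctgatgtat
Casq1 A_51_P199104 (chr1:174140602-174142105, minus strand): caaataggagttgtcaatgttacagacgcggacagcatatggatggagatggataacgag
Cacna1s A_55_P2169923 (chr1:138015618-138015677, plus strand): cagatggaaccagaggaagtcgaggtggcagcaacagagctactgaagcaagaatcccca
Atp2a2 A_52_P168097 (chr5:122910660-122910719, minus strand): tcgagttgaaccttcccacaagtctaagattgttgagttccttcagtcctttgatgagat
Trdn A_55_P2401646 (chr10:32915796-32915855, plus strand): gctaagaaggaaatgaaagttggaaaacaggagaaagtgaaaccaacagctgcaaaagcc

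All levels below are log2 signals relative to the 75th percentile of the same array, so that 0 is the level of that percentile. Levels of the members were compared between arrays for 1 probe at a time, since binding strengths differ between probes. The summed levels of cell type markers, given further below, do add signals of different probes. In those sums the probes with the most signal weigh most.

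The voltage sensor was measured by 3 probes, 2 for its pore subunit and 1 for Cacng1, its gamma subunit. The brighter Cacna1s probe, A_51_P103541 (chr1:138016020-138016079, plus strand), read 5.34, 4.89, 5.26 and 5.37 in EXO-Post BSA replicates 1 to 4 and 4.64, 5.15 and 4.67 in EXO-Post Palm replicates 1 to 3. Replicates 1 and 3 of EXO-Post Palm lay below all EXO-Post BSA arrays, while replicate 2 lay inside their range, so the groups overlapped. From these values a log2 fold change of -0.39 (SE 0.228, 95% interval -0.91 to 0.12, adjusted p = 0.612, exact permutation p = 0.114) was fitted, or 0.761-fold with an interval from 0.531 to 1.09. The other Cacna1s probe, A_55_P2169923, binds 402 bases upstream on the genome and read 1.28, 1.21, 1.44 and 1.21 in EXO-Post BSA replicates 1 to 4 and 1.15, 1.49 and 0.64 in EXO-Post Palm replicates 1 to 3. Here EXO-Post Palm supplied both the highest and the lowest array. Its log2 fold change was -0.19 (SE 0.241, 95% interval -0.74 to 0.36, adjusted p = 0.830, exact permutation p = 0.400), and it turned to 0.037 without EXO-Post Palm replicate 3. The change of the first of these probes relative to the second was -0.20 within arrays (exact permutation p = 0.314).

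Cacng1 probe A_51_P210286 (chr11:107565096-107565155, minus strand) read 2.10, 2.04, 2.38 and 2.64 in EXO-Post BSA replicates 1 to 4 and 2.45, 2.92 and 2.08 in EXO-Post Palm replicates 1 to 3. The highest array belonged to EXO-Post Palm, but another array of that group lay between the 2 lowest EXO-Post BSA values. Cacng1 had a log2 fold change of 0.19 (SE 0.265, 95% interval -0.41 to 0.79, adjusted p = 0.844, exact permutation p = 0.514). It came to -0.026 without EXO-Post Palm replicate 2 and to -0.025 with the slide as a block.

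The release channel gene Ryr1 had the fold change nearest to 0 of the 13 probes. Its probe binds from base 15052 of the transcript and read 3.04, 2.60, 2.81 and 3.11 in EXO-Post BSA replicates 1 to 4 and 2.42, 2.80 and 3.21 in EXO-Post Palm replicates 1 to 3. The lowest and the highest of the 7 values were both EXO-Post Palm arrays. Group means were 2.89 ± 0.23 (SD, n = 4) in EXO-Post BSA and 2.81 ± 0.40 (SD, n = 3) in EXO-Post Palm. For Ryr1 the log2 fold change was -0.082 (SE 0.250, 95% interval -0.65 to 0.49, adjusted p = 0.938, exact permutation p = 0.714), and the interval in folds ran from 0.637 to 1.40. The sign was not settled, at 0.11 without EXO-Post Palm replicate 1 and 0.20 in the authors' processed values.

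**Figure D2:**
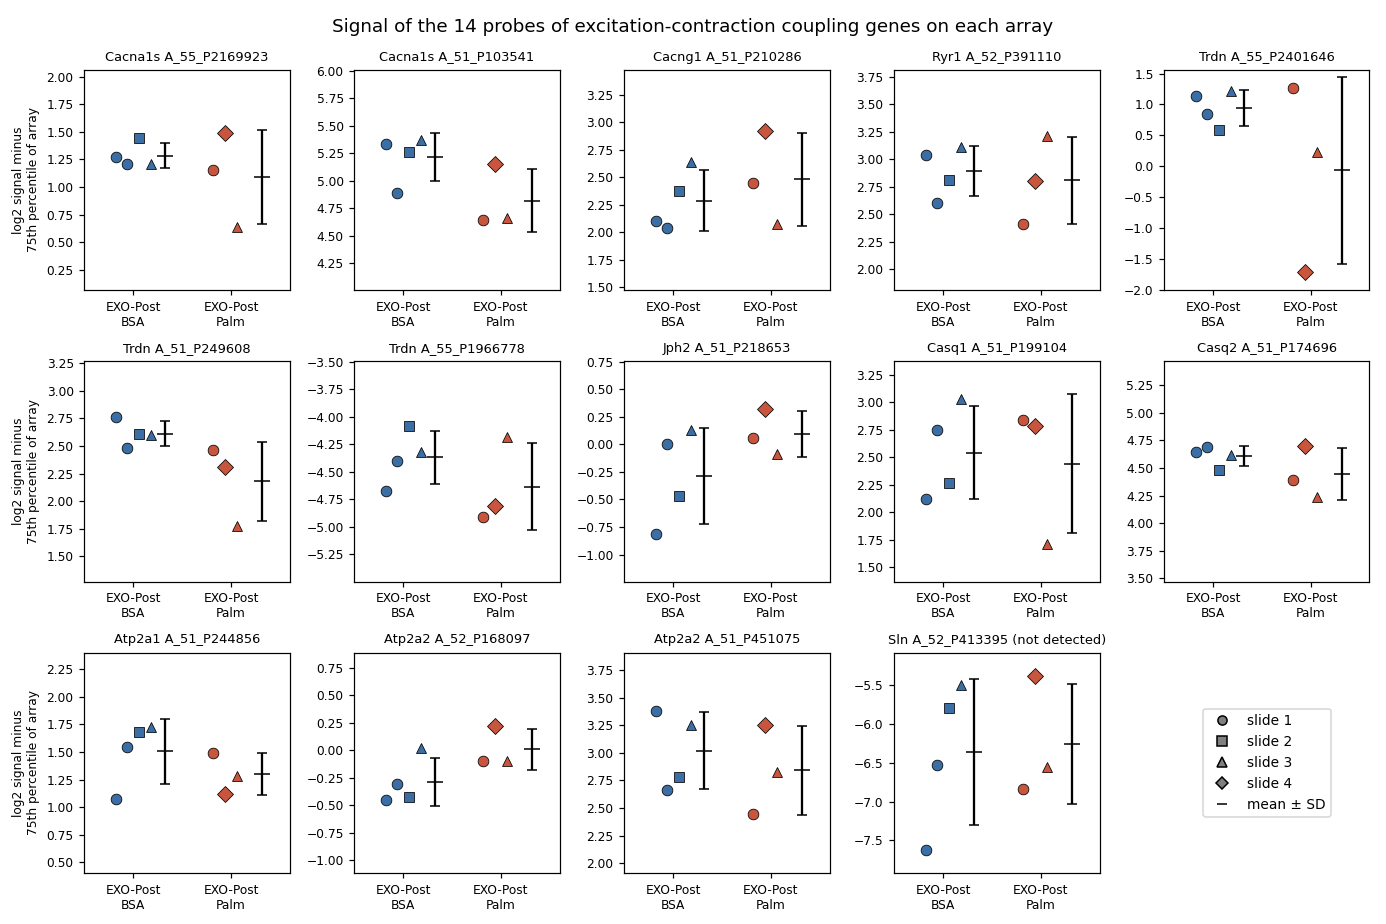
Level of each of the 14 probes (vertical axis, log2 signal minus the 75th percentile of the array) in EXO-Post BSA (blue) and EXO-Post Palm (red), with the marker shape giving the slide and the bars the mean ± SD of each group. Each panel has its own vertical range of at least 2 log2 units. The groups are apart only for Trdn probe A_51_P249608, where EXO-Post BSA read 2.48 to 2.76 and EXO-Post Palm 1.78 to 2.46.

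Among the junctional proteins, triadin had the 2 lowest fold changes of the 13 probes. Its 3 probes lie in genomic order A_55_P2401646, A_51_P249608 (chr10:32919981-32920040, plus strand) and A_55_P1966778 (chr10:33194264-33194323, plus strand). Alternative splicing of Trdn gives shorter and longer triadins in heart and skeletal muscle, so probes along the gene need not read the same transcripts. Probe A_51_P249608 is assigned by the array to an Ensembl transcript and the other two to a RefSeq one.

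Probe A_51_P249608 read 2.76, 2.48, 2.61 and 2.60 in EXO-Post BSA replicates 1 to 4 and 2.46, 2.30 and 1.78 in EXO-Post Palm replicates 1 to 3. All EXO-Post BSA arrays lay above all EXO-Post Palm arrays, by 0.021 at the narrowest. This was 1 of 13 tested member probes without overlap, where 11.3% of all tested probes had none and 5.87% had EXO-Post Palm below. The log2 fold change was -0.43 (SE 0.225, 95% interval -0.94 to 0.081, adjusted p = 0.577, exact permutation p = 0.0286), and the exact p is the smallest that 35 ways of parting 7 arrays allow. The separation was absent from the authors' processed values, where EXO-Post Palm replicate 2 (12.42) lay above EXO-Post BSA replicate 2 (12.32), although the log2 fold change there was -0.40.

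Probe A_55_P2401646 read 1.14, 0.84, 0.58 and 1.22 in EXO-Post BSA replicates 1 to 4 and 1.26, -1.71 and 0.24 in EXO-Post Palm replicates 1 to 3. EXO-Post Palm replicate 2 was more than 1 log2 unit below every other array, and EXO-Post Palm replicate 1 was the highest of all. The log2 fold change of -1.02 (SE 0.596, 95% interval -2.37 to 0.34, adjusted p = 0.618, exact permutation p = 0.229) came to -0.20 without EXO-Post Palm replicate 2, to -1.68 without EXO-Post Palm replicate 1 and to -0.27 with the slide as a block, a fit in which replicate 2, alone on its slide, carries no weight. Processed intensities, which are not normalised between arrays, were 3892, 198 and 647 on EXO-Post Palm replicates 1 to 3. The 75th percentiles of these arrays were 1621, 648 and 549.

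The third Trdn probe, A_55_P1966778, was faint. It was well above background on 3 of 4 EXO-Post BSA arrays and on 1 of 3 EXO-Post Palm arrays, so it was tested on the strength of EXO-Post BSA alone. It read -4.67, -4.40, -4.08 and -4.32 in EXO-Post BSA replicates 1 to 4 and -4.91, -4.81 and -4.18 in EXO-Post Palm replicates 1 to 3, with overlapping groups. Its log2 fold change was -0.26 (SE 0.253, 95% interval -0.84 to 0.31, adjusted p = 0.766, exact permutation p = 0.314). Since it met the filter only through the group in which it read higher, its direction adds nothing to that of the other Trdn probes.

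Jph2, a junctophilin best known from heart muscle, had the highest log2 fold change of the 13 probes. Probe A_51_P218653 (chr2:163163526-163163585, minus strand) read -0.81, 0.0026, -0.47 and 0.13 in EXO-Post BSA replicates 1 to 4 and 0.056, 0.32 and -0.092 in EXO-Post Palm replicates 1 to 3. EXO-Post Palm arrays lay within or above the range of EXO-Post BSA, which spread widely. The fitted log2 fold change was 0.38 (SE 0.274, 95% interval -0.24 to 1.01, adjusted p = 0.681, exact permutation p = 0.257), or 1.31-fold with an interval from 0.848 to 2.01. Under other processing it was 0.67 with normexp and quantile normalisation and 0.72 in the authors' processed values, with adjusted p of 0.330 and 0.370.

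The calcium store was represented by both calsequestrins, Casq1, the form of fast skeletal muscle, and Casq2, the form of cardiac and slow muscle. Of the 9 tested genes, each taken by its brightest probe, Casq1 varied most over the 7 arrays (SD 0.476). Its probe read 2.12, 2.75, 2.26 and 3.03 in EXO-Post BSA replicates 1 to 4 and 2.84, 2.78 and 1.71 in EXO-Post Palm replicates 1 to 3. EXO-Post Palm replicates 1 and 2 stood in the upper part of the range of EXO-Post BSA and replicate 3 below it. Casq1 had a log2 fold change of -0.097 (SE 0.348, 95% interval -0.89 to 0.70, adjusted p = 0.946, exact permutation p = 0.857). Leaving out EXO-Post Palm replicate 3 turned it to 0.27 and leaving out EXO-Post BSA replicate 4 to 0.067, while it was -0.53 with normexp and quantile normalisation, -0.53 with a floor and -0.55 in the authors' processed values.

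Slides held up to 3 arrays each, and only slides 1 and 3 carried both groups. The Casq1 difference, EXO-Post Palm minus EXO-Post BSA, was 0.40 on slide 1 (1 array against 2) and -1.32 on slide 3 (1 against 1). Within these slides the difference was below 0 on both for the 2 Cacna1s probes (-0.47 and -0.71 for the brighter, -0.089 and -0.57 for the other), Casq2 (-0.28 and -0.38), Trdn A_51_P249608 (-0.16 and -0.82) and Atp2a2 A_51_P451075 (-0.58 and -0.42). The other 8 tested probes had opposite signs on slides 1 and 3, among them Ryr1 (-0.40 and 0.10), Cacng1 (0.38 and -0.56), Jph2 (0.46 and -0.22) and Atp2a1 (0.19 and -0.45). Fits with the slide as a block called 0 member probes.

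Casq2 was the steadiest of the set. Probe A_51_P174696 (chr3:101949827-101949884, plus strand) read 4.65, 4.69, 4.48 and 4.62 in EXO-Post BSA replicates 1 to 4 and 4.39, 4.70 and 4.24 in EXO-Post Palm replicates 1 to 3. The EXO-Post BSA arrays lay close together (SD 0.0887), with EXO-Post Palm replicates 1 and 3 below them and replicate 2 above. For Casq2 the log2 fold change was -0.17 (SE 0.200, 95% interval -0.62 to 0.29, adjusted p = 0.820, exact permutation p = 0.257), with the smallest SE of the 13 probes. Its sign differed under other processing, with 0.25 under normexp with quantile normalisation and 0.25 in the authors' processed values.

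The fast-muscle pump gene Atp2a1 was measured by probe A_51_P244856 (chr7:133591703-133591762, minus strand), which read 1.08, 1.54, 1.68 and 1.73 in EXO-Post BSA replicates 1 to 4 and 1.50, 1.12 and 1.28 in EXO-Post Palm replicates 1 to 3. The groups overlapped, EXO-Post BSA replicate 1 being the lowest array of all. Atp2a1 had a log2 fold change of -0.21 (SE 0.231, 95% interval -0.73 to 0.32, adjusted p = 0.801, exact permutation p = 0.314), an interval of 0.601- to 1.25-fold.

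Atp2a2, the pump of slow and cardiac muscle and of most other cells, had a pair of probes with fold changes of opposite sign. Probe A_52_P168097 read -0.45, -0.30, -0.42 and 0.022 in EXO-Post BSA replicates 1 to 4 and -0.098, 0.22 and -0.097 in EXO-Post Palm replicates 1 to 3. All EXO-Post Palm arrays exceeded 3 of the 4 EXO-Post BSA arrays, the exception being EXO-Post BSA replicate 4. Its log2 fold change was 0.30 (SE 0.212, 95% interval -0.19 to 0.78, adjusted p = 0.683, exact permutation p = 0.114). Probe A_51_P451075, which lies 6956 bases further along the transcript's direction on the genome (chr5:122903704-122903763, minus strand), read 3.38, 2.67, 2.78 and 3.25 in EXO-Post BSA replicates 1 to 4 and 2.44, 3.25 and 2.83 in EXO-Post Palm replicates 1 to 3. Here the lowest array was EXO-Post Palm replicate 1 and the highest EXO-Post BSA replicate 1. This probe had a log2 fold change of -0.18 (SE 0.278, 95% interval -0.81 to 0.46, adjusted p = 0.867, exact permutation p = 0.571), and 0.022 without EXO-Post Palm replicate 1. Splicing gives Atp2a2 transcripts with different ends, and the probes need not read the same ones. The difference of the first probe minus the second, taken within each array, was 0.47 higher on average in EXO-Post Palm and did not pass the test (exact permutation p = 0.0857, adjusted over the 5 pairs of probes that share a gene 0.429).

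Sln was not well above background on any of the 7 arrays, so no fold is given for sarcolipin. Its probe (chr9:53701574-53701633, plus strand) gave processed intensities of 5.90, 9.78, 15.3 and 16.0 in EXO-Post BSA replicates 1 to 4 and 14.2, 15.5 and 5.83 in EXO-Post Palm replicates 1 to 3. On each array this was below the dimmest probe called well above background, which read 18.98 to 36.9.

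**Figure D3:**
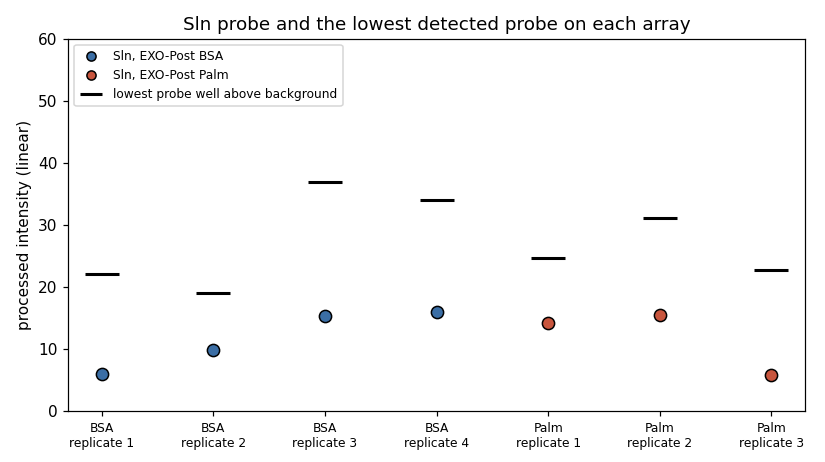
Processed intensity (linear scale, vertical axis) of the Sln probe on each array, as circles, and of the dimmest probe that the scanner software called well above background on the same array, as bars. The circle lies below the bar on all 7 arrays.

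For partners that work together, unequal change was tested within arrays, with 1 probe per gene, the brightest. The difference Casq1 minus Casq2 changed by 0.069 between the groups (exact permutation p = 0.771, adjusted over the 3 pairs 0.971). Atp2a1 minus Atp2a2 changed by -0.031 (exact permutation p = 0.971, adjusted 0.971). Both turned under normexp with quantile normalisation, to -0.78 and 0.29, and in the authors' processed values, to -0.80 and 0.32, without passing the test. Cacna1s minus Ryr1 changed by -0.31 (exact permutation p = 0.171, adjusted 0.514). That last difference read 2.30, 2.29, 2.44 and 2.27 in EXO-Post BSA and 2.23, 2.35 and 1.46 in EXO-Post Palm, so 6 arrays lay close together and EXO-Post Palm replicate 3 stood below them. None of the 3 pairs passed the test.

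Other genes of calcium handling were set beside the 10. Of 82 such genes 65 were tested, 1 probe each. In either direction 0 of the 65 passed the threshold, where 0.533% of all tested probes did. An unadjusted p under 0.05 was found for 7 of the 65, where 10% of all tested probes had one. Values were above 0 for 26 genes and below 0 for 39, where 52.7% of all tested probes were below 0. Their median was -0.094, beside -0.17 for the 9 tested member genes taken by 1 probe each. Ryr2, the cardiac release channel, and Pln, the cardiac pump inhibitor related to Sln, did not meet the filter on dim probes.

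By role, the extremes of the list, with each gene taken by its brightest tested probe, were as follows. Among exchangers and pumps they were Slc8a3, a sodium-calcium exchanger of muscle, at -1.36 (SE 0.306, adjusted p = 0.137), and Atp2b1, a plasma membrane calcium pump, at 0.28 (SE 0.248, adjusted p = 0.749). A second Slc8a3 probe, fainter, was at 0.25 (adjusted p = 0.921). In store-operated entry they were Stim1, the calcium sensor of the reticulum, at -1.08 (SE 0.268, adjusted p = 0.188) and its relative Stim2 at 0.37 (SE 0.754, adjusted p = 0.903). Stim2 read -2.59, -2.74, -2.37 and -5.77 in EXO-Post BSA replicates 1 to 4. In EXO-Post Palm replicates 1 to 3 it read -2.67, -2.99 and -3.34, so its value above 0 rests on EXO-Post BSA replicate 4. Among triad proteins they were Bin1, which shapes the transverse tubule, at -1.03 (SE 0.354, adjusted p = 0.375) and Tmem38b, a cation channel of the reticulum, at 0.56 (SE 0.269, adjusted p = 0.539).

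Among mitochondrial uptake genes the extremes were Mcub, a subunit of the uniporter named Ccdc109b on the array, at 0.91 (SE 0.228, adjusted p = 0.190) and Slc8b1, the mitochondrial sodium-calcium exchanger, at -0.31 (SE 0.249, adjusted p = 0.714). Among other channel subunits of the voltage sensor list they were Cacnb3 at 0.54 (SE 0.251, adjusted p = 0.529) and Cacna2d2 at -0.48 (SE 0.337, adjusted p = 0.675). Among calcium-binding proteins they were Pvalb, the cytosolic buffer parvalbumin, at 0.58 (SE 0.319, adjusted p = 0.597) and Rcn3 at -0.35 (SE 0.221, adjusted p = 0.646). Among release channels and their regulators they were Calm3, 1 of the calmodulin genes, at -0.65 (SE 0.254, adjusted p = 0.454), in a fit without EXO-Post BSA replicate 1, whose spot bears an outlier flag, and the inositol trisphosphate receptor gene Itpr1 at 0.33 (SE 0.400, adjusted p = 0.824).

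Further probes of the listed genes went beyond these extremes in 3 roles, named here after their values were seen, and none passed the threshold. Cacna1g, a T-type calcium channel of the voltage sensor list, was at -1.52 (adjusted p = 0.301) by a probe well above background on 1 of 3 EXO-Post Palm arrays, and at -0.32 (adjusted p = 0.665) by its brighter probe. In the same list Cacna2d1 was at -0.55 (adjusted p = 0.369) by a further probe and at -0.45 (adjusted p = 0.651) by its brighter probe. Among regulators of the release channel, further probes put Camk2a at 0.74 (adjusted p = 0.628) and Camk2b at -0.70 (adjusted p = 0.335), both calmodulin-dependent kinase genes. Calm2 was at 0.61 (adjusted p = 0.421) by a further probe. That Camk2b probe was well above background on 1 of 3 EXO-Post Palm arrays, so it met the filter only through EXO-Post BSA. The brighter probes put Camk2a at -0.15 (adjusted p = 0.855), Camk2b at -0.14 (adjusted p = 0.942) and Calm2 at 0.039 (adjusted p = 0.962). Sdf4, a calcium-binding protein gene, had further probes at 0.62 (adjusted p = 0.461) and -0.36 (adjusted p = 0.800), the latter faint. That faint probe was well above background on 3 of 4 EXO-Post BSA and 2 of 3 EXO-Post Palm arrays. The brightest Sdf4 probe was at 0.43 (adjusted p = 0.593).

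**Figure D4:**
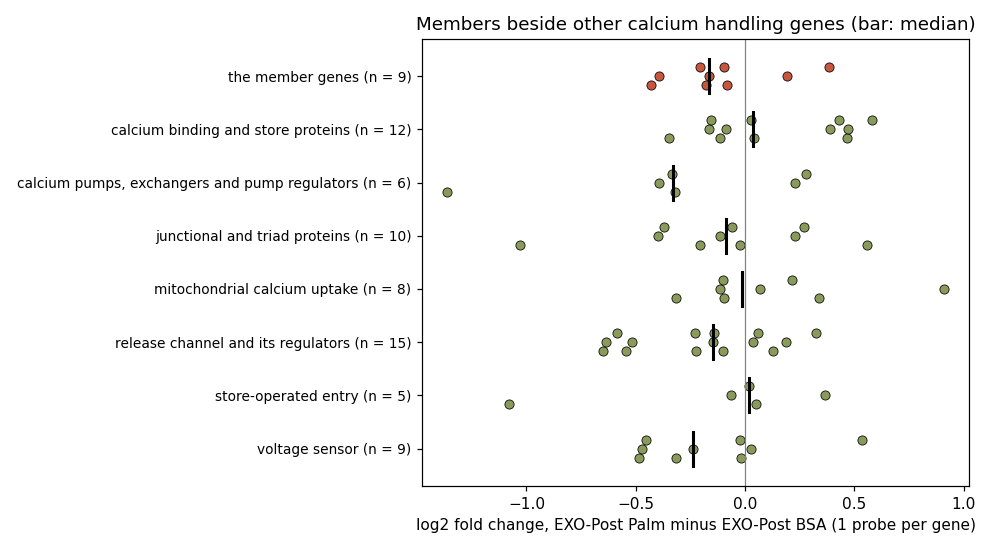
Log2 fold change (EXO-Post Palm minus EXO-Post BSA, horizontal axis), 1 point per gene, for the 9 tested member genes (red) and for 65 other calcium handling genes by role (green), with a bar at each median. The member genes lie between -0.43 and 0.38, inside the range of the other genes.

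The array profile most like that of Casq1, measured as the root mean square difference of centred log2 values over 7 arrays, was found for Zfp292 (0.128), Fuca1 (0.140), Tbc1d20 (0.144), Chka (0.151) and Eef2k (0.157). None of these 5 genes passed the threshold. This is a description over arrays that share slides and normalisation.

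Markers of differentiated muscle were present throughout. All 14 myotube markers examined were well above background on all 7 arrays, Myog and Ckm among them, and 4 of 6 myoblast markers were, Pax7 included. The summed level of the myotube markers was taken as log2 of the summed signals relative to the 75th percentile. It ranged over 10.071 to 10.368 in EXO-Post BSA and 9.797 to 10.069 in EXO-Post Palm. These ranges were apart by a very narrow margin, and 0 of 14 were called. Of all tested single probes 11.3% had no overlap. The myotube markers had a median log2 fold change of -0.22, and the lowest was -0.65 for Myh8. Des (0.50), Ckm (0.35) and Myh1 (0.052) were above 0, and the rest were below 0. The summed level of the myoblast markers ranged over 4.58 to 4.97 in EXO-Post BSA and 4.38 to 5.14 in EXO-Post Palm, so the groups overlapped. The summed level of the cardiac markers ranged over 7.55 to 8.20 in EXO-Post BSA and 6.84 to 7.36 in EXO-Post Palm. For the cardiac markers the groups did not overlap, with 0 of 7 tested genes called. Most of this summed signal came from the probes of Actc1 and Tnnt2 (mean levels 6.78 and 6.28), while every other cardiac marker had a mean level below 0. Log2 fold changes were -0.93 for Actc1, -0.49 for Tnnt2, -0.38 for Myh6 and -0.061 for Nkx2-5. Gata4, Tnni3 and Nppb were above 0, at 0.076, 0.13 and 0.20. The summed levels of the myotube and cardiac lists were both lower in EXO-Post Palm, the direction of most tested member probes. The part of these summed levels in the members' values was not tested. The cardiac gene Nppa was well above background on 3 arrays and Myh6 on 7, and the adipocyte hormone gene Adipoq on 1. Of the adipocyte markers, 2 of 7 were well above background on all arrays. Their summed levels ranged over -0.10 to 0.15 in EXO-Post BSA and 0.16 to 0.89 in EXO-Post Palm. These ranges too were apart by a very narrow margin, and 0 of 2 tested genes were called. Of those 2, Cebpa was at 1.28 (adjusted p = 0.188) and Pparg at -0.086 (adjusted p = 0.928), values named after they were seen. Those of fibroblast and smooth muscle markers ranged over 7.34 to 7.47 in EXO-Post BSA and 6.74 to 7.39 in EXO-Post Palm, with 1 gene called lower, Cnn1. Those of endothelial and blood cell markers ranged over 2.08 to 2.43 in EXO-Post BSA and 1.66 to 2.68 in EXO-Post Palm, with 2 of 6 on all arrays. Probes well above background made up 48.5 to 70.3% of each array, and correlations of whole arrays were 0.946 to 0.985 between the groups, close to the 0.962 to 0.984 within EXO-Post BSA and the 0.948 to 0.970 within EXO-Post Palm.

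The promoters of the members were read for letters known to bind muscle factors. MyoD and myogenin bind E-boxes, of which CAGCTG is a form that myogenic factors favour, and MEF2 binds an A and T rich site. The RefSeq table for GRCm38.p6 held starts for 6 of the 10 genes, Ryr1, Cacna1s, Atp2a1, Casq1, Casq2 and Jph2. In the 250 bases before the start, CAGCTG, which reads the same on both strands, occurred in 4 of these 6 genes (Cacna1s, Atp2a1, Casq1 and Jph2), beside 13.0% of all 32851 promoters of that length. Members were counted as genes and the whole as promoters, and a gene can have several, as Jph2 did with overlapping ones that share their CAGCTG. The wider form CANNTG, which includes CAGCTG, occurred in 5 of 6, beside 66.2% of all. The MEF2 site, searched on both strands, occurred in Casq2 alone of the 6, beside 2.92% of all, and TATAAA and the CArG box of serum response factor occurred in none of the 6, beside 12.4% and 1.47%. The last 150 bases before the start are printed for 3 genes to show where the letters fall, with CANNTG and MEF2 matches in capitals.
Cacna1s promoter, GRCm38.p6 chr1:136052661-136052810, plus strand: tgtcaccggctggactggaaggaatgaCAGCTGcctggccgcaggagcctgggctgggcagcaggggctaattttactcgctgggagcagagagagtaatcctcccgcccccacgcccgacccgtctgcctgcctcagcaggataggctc
Atp2a1 promoter, GRCm38.p6 chr7:126463074-126463223, minus strand: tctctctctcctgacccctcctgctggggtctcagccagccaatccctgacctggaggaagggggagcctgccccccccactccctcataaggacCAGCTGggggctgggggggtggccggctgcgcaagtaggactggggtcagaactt
Casq2 promoter, GRCm38.p6 chr3:102086265-102086414, plus strand: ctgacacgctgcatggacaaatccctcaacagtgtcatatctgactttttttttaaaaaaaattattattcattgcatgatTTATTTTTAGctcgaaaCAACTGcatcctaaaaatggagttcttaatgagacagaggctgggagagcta
The CAGCTG of Cacna1s begins 123 bases before the start and that of Atp2a1 begins 55 bases before it. In Casq2 the MEF2 site begins 69 bases and an E-box of another form 52 bases before the start. These are matches of letters, and binding was not measured.

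The direction of the small differences also depended on how the signals were processed. Under 13 other ways of processing the same arrays and whichever single array was left out, 0 member probes were called, and the number with an unadjusted p under 0.05 was between 0 and 2. The number of the 13 probes below 0 was 10 with the 75th percentile and 8 with normexp, with a floor and in the authors' processed values. Fold changes of both Cacna1s probes, all Trdn probes, Atp2a1 and Atp2a2 A_51_P451075 stayed below 0 and those of Jph2 and Atp2a2 A_52_P168097 above 0 under each of the 13, except that the third Trdn probe was left out by the stricter filter and had 12. Ryr1, Casq1, Casq2 and Cacng1 changed sign under at least 1 of them. The alternatives of probe filter, variance model and test leave the fold change of a probe as it was, so no sign could change under those.

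**Figure D5:**
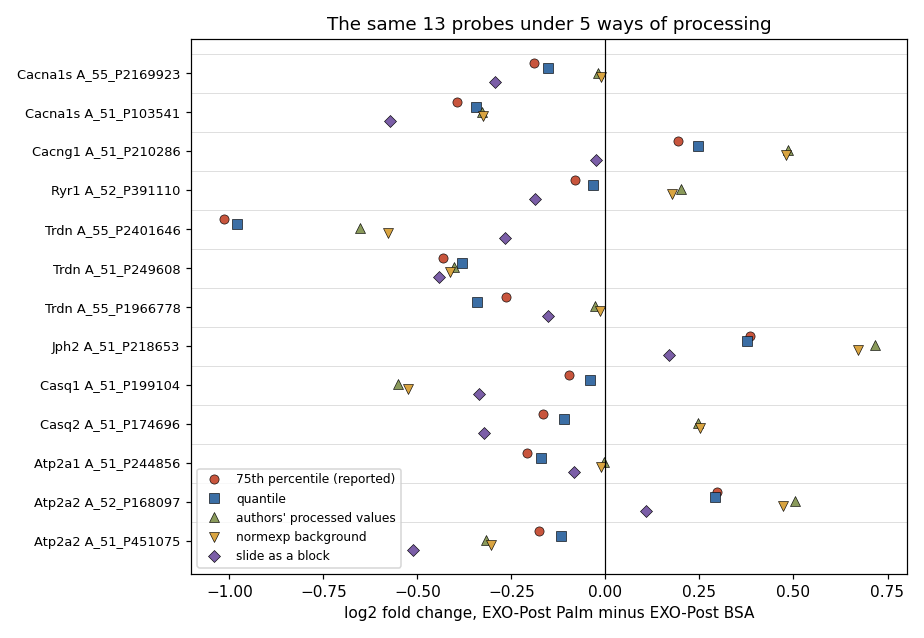
Log2 fold change (EXO-Post Palm minus EXO-Post BSA, horizontal axis) of the 13 tested probes under 5 ways of processing, given by marker shape and colour. Ryr1 runs from -0.19 with the slide as a block to 0.20 in the authors' processed values, on both sides of 0.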

How the data were processed

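RNA of C2C12 cells was hybridised to 1-colour Agilent arrays, of which 4 were EXO-Post BSA and 3 EXO-Post Palm. The authors deposited scanner output, whose processed signal is a linear intensity after background subtraction and detrending, not normalised between arrays. The authors also deposited a table of processed values on the log2 scale, quantile normalised, with a median of 6.65 in every column. Its rows were joined to spots by order (rank correlation with the median intensity at least 0.9936). The paper's methods name limma. The submitters' processing notes name Agilent Feature Extraction 9.1. EXO-Post BSA replicate 3 was read with a later scanner software version, and its output has no gene names, which were joined by probe name.

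Values were log2 processed signal minus that of the 75th percentile over 43020 non-control spots, which was an intensity of 549 to 1621. Outlier-flagged spots were left out, spots of 1 probe were averaged, and no spot was saturated. The fit took in probes well above background on 75% or more of the arrays in either group (21589 probes). It used limma 3.58.1 (R 4.3.3), with condition alone in the model and Benjamini-Hochberg adjustment over all tested probes. The 95% intervals are limma's and unadjusted. Exact permutation tests were 2-sided over the 35 ways to part 7 arrays. The number of arrays limits the precision. The model was tested on simulated data.

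Alternatives covered normalisation, background correction (normexp with an offset of 50, or a floor of 50, each with quantile normalisation), the authors' values, the probe filter, slide, replicate number, array weights, variance model, test, and each array left out. The background corrections used median signals, since 1 file holds no mean signal.

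The member genes and the lists of calcium handling and marker genes were chosen with earlier results of these data known. Named genes were all members with every probe, the largest rise and fall per role of the calcium handling list, 6 defining markers, and the 5 profiles most like the member gene that varied most. Cnn1, Cebpa, Pparg, the cardiac and myotube markers beyond the 6, and further probes of listed genes were named after their values were seen. So was the comparison of probes that share a gene. Of the calcium handling genes, 1 entry was dropped because its array name now belongs to another gene.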

Additional observations from a re-analysis of the deposited data

How the results depend on the processing

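The 0 calls among the member probes and the 0 calls among the other calcium handling genes remained under each of 13 alternatives and with each of the 7 arrays left out. Over all probes the count of 115 moved to 0 without a probe filter, to 0 with the methods' t-test, to 0 with the replicate block, to 181 with slide as a random effect and to 173 with a trended and robust variance. It ran from 0 (without EXO-Post BSA replicate 1) to 202 (without EXO-Post Palm replicate 2) with an array left out, a range within which the other 5 counts fell.

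Ryr1 was 0.18 with normexp, 0.18 with a floor and 0.20 in the authors' values, where Casq2 was 0.25, 0.25 and 0.25. Cacng1 was -0.025 with slide as a fixed block. Casq1 minus Casq2 was -0.78, -0.78 and -0.80 under normexp, the floor and the authors' values, and Atp2a1 minus Atp2a2 was 0.29, 0.29 and 0.32. With an array left out, log2 fold changes ran from -0.28 to 0.11 for Ryr1, -0.39 to 0.037 for Cacna1s A_55_P2169923, -0.026 to 0.39 for Cacng1, -0.38 to 0.022 for Atp2a2 A_51_P451075 and -0.29 to 0.27 for Casq1, and the changes of the pairs from -0.15 to 0.33 for Casq1 minus Casq2, -0.33 to 0.26 for Atp2a1 minus Atp2a2 and -0.48 to -0.035 for Cacna1s minus Ryr1. The cause of these shifts was not tested.

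Deviations of same-numbered arrays from the group means correlated at 0.12, -0.15 and -0.15 for numbers 1, 2 and 3. The arrays numbered 1 were both on slide 1, and those numbered 2 and 3 lay on different slides. Among numbers 1 to 3 the largest correlation was 0.31, between EXO-Post BSA replicate 2 and EXO-Post Palm replicate 1, also both on slide 1. The replicate block called 0 of 21589 probes and 0 member probes, and put Casq1 at 0.067. The lowest adjusted p among member probes with it was 0.610.

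Slides 2 and 4 hold 1 array each, so a fit with slide as a fixed block draws on 5 arrays. Sln was not well above background on any array and the third Trdn probe on 4 of 7, which limits both.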
